A study of Mus musculus with 9 samples.

Results

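The cytosolic heat shock chaperones are taken here as 10 genes. They are the Hsp110 and Hsp70 proteins Hsph1, Hspa1a, Hspa1b and Hspa8, the J-domain proteins Dnajb1 and Dnaja1, the small heat shock proteins Hspb1, Hspb8 and Cryab, and the cochaperone Bag3. The members were every probe set that the array annotation gives to 1 of these symbols alone, which were 24 probe sets of 10 genes, out of 45037 probe sets and 18193 named genes. mRNA was measured in ear skin of C57BL/6 mice at 6 h after a compound was put on the ear surface, with 3 arrays per group. The groups were DNFB (dinitrofluorobenzene, a hapten that reacts with proteins and is called an allergen in the labels), BAC (benzalkonium chloride, a quaternary ammonium surfactant, called an irritant) and the vehicle, a mixture of acetone and olive oil. Both compounds were put on right ears and the vehicle on left ears, so ear side and treatment cannot be told apart. The labels name no allele, age or dose for any group, and do not say that numbered replicates are separate animals. The p-values below thus cover the spread among these arrays alone, part of which may be technical.

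Hsp70 proteins bind stretches of unfolded protein and release them in a cycle driven by ATP. J-domain proteins bring them clients and trigger ATP hydrolysis, Hsp110 proteins and BAG proteins speed the exchange of nucleotide, and small heat shock proteins hold unfolded proteins until the Hsp70 system takes over. When unfolded or chemically modified proteins build up, heat shock factor 1 binds heat shock elements, inverted repeats of the letters GAA, in the promoters of these genes and raises their transcription. In skin, Hspb1 is a constitutive protein of differentiating keratinocytes, and Cryab and Hspb8 are abundant in skeletal muscle.

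Promoters are shown because heat shock elements are the known control sequences of this gene family. RefSeq promoters on GRCm38.p6, each with 250 bases before the annotated start and 50 after it, were found for 8 of the 10 genes, in 12 windows; Hspa8 and Cryab were not among them. The 8-letter elements TTCNNGAA and GAANNTTC each read the same on both strands. A longer element, searched on both strands, is either of these extended by 1 more repeat after a further NN, so that it contains both of them. Capitals mark matches to any of these motifs, and sequences run 5′ to 3′ on the strand of the gene. The Hsph1 window lies at chr5:149636266-149636565 on the minus strand and holds TTCTCGAA at -54 to -47 and TTCTGGAAAGTTC at 16 to 28 from the start. The Hspa1a window lies at chr17:34972107-34972406 on the minus strand and holds GAAGATTC at -104 to -97.
Hsph1: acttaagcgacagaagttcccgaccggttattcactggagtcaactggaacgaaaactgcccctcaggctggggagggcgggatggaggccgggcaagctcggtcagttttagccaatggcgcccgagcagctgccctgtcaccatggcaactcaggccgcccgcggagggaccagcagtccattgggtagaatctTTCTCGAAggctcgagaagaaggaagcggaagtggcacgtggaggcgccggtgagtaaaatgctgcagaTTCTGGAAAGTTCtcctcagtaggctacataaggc
Hspa1a: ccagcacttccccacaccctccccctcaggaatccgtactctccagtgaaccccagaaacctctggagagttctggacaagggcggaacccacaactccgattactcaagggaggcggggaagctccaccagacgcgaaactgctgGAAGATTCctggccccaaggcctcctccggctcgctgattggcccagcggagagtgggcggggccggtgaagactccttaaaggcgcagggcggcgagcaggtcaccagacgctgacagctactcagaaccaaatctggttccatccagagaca

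Shorter windows around the match are given for the other members that had one, to set elements of genes that rose beside those of genes that did not. They come from the promoters at chr17:34959189-34959488 (Hspa1b, minus strand), chr4:40722218-40722517 (Dnaja1, plus strand), chr7:128523333-128523632 (Bag3, plus strand), chr5:135887669-135887968 (Hspb1, plus strand) and chr5:116422815-116423114 (Hspb8, minus strand).
Hspa1b: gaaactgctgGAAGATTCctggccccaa
Dnaja1: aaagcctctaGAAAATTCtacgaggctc
Bag3: gatgggaccaGAAGTTTC
Hspb1, first match: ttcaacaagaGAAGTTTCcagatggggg
Hspb1, second match: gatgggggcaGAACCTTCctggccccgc
Hspb8: gaagccaggaGAAGTTTCtaggctcgcg
Either 8-letter element was present in 7 of the 8 genes, or 8 of 12 windows, beside 15.1% of all 32851 mouse promoter windows. The longer elements were present in Hsph1, in 2 windows of different annotated starts that overlap, beside 0.603% of all windows. The Hspa1a and Hspa1b promoters differ at 4 of 300 bases. Neither of the 2 Dnajb1 windows held an exact match to any of these motifs. Elements with a mismatch, or outside the 300 bases, were not searched for any gene. Hspb1 and Hspb8, which did not pass the test in either treatment, held matches as well.

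Each probe set gave a MAS5 signal on a linear scale, and the probe set with the highest average on the log2 scale stood for a gene. All 10 genes and 24 probe sets entered the tests, and all but 1 probe set exceeded the array's 40th percentile in 9 of 9 arrays. The exception was the Cryab probe set 1435837_at, which did so in 3 arrays. Every array had a trimmed mean signal of 250.001, so the arrays had been scaled to a common level, and no read depth exists behind these values; the number of arrays limits the precision. The 3′ over 5′ signal ratio of the Gapdh control, a measure of RNA integrity, was 0.841 to 1.36 in the DNFB arrays, 0.917 to 0.932 in the BAC arrays and 0.856 to 0.880 in the vehicle arrays. DNFB replicate 2 had the 1.36. The same ratio of the actin control was 1.09 to 1.28 in the DNFB arrays and 1.18 to 1.22 in the BAC arrays, all but DNFB replicate 1 above the 1.05 to 1.10 of the vehicle arrays, so it moved with treatment. The part of RNA quality in the changes below was not tested. Without DNFB replicate 2, 8 member genes were called in DNFB against the vehicle. All 8 keratinocyte markers exceeded that percentile in every array, and their summed signal was 58893 to 66278 in the DNFB arrays, 63595 to 66744 in the BAC arrays and 65562 to 74862 in the vehicle arrays. Single markers moved more than this sum: 5 of the 8 fell after DNFB, beside 7.08% of all tested genes, with a median log2 change of -0.43. After BAC 3 fell, beside 7.64%, with a median of -0.18. The medians of all tested genes were 0.0022 and -0.03. Trp63, the transcription factor of basal keratinocytes, fell by 1.10 after DNFB, while Krt10, which gives the most signal to the sum, changed by 0.33 (limma adjusted p = 0.102). That of 8 neutrophil markers was 14389.9 to 24227 in the DNFB arrays, 23322 to 33193 in the BAC arrays and 3762 to 8753 in the vehicle arrays. The part of cell makeup in the changes below was not tested, and in whole skin more cells of a type and more RNA per cell cannot be told apart.

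DNFB against the vehicle asked how far the chaperone genes answered the allergen. Of the 10 genes, 8 rose and none fell (limma, adjusted p under 0.05), beside 6.76% of all 14122 tested genes that rose and 7.08% that fell. In the same 8 genes every DNFB array lay above every vehicle array, a state that 15.2% of all tested genes showed. The median log2 change of the 10 genes was 1.14, beside 0.0022 for all tested genes. After BAC, 6 of 10 genes rose and none fell, beside 6.59% of all genes that rose and 7.64% that fell, with a median log2 change of 0.47 beside -0.03 for all tested genes. The BAC arrays lay wholly above the vehicle arrays in 7 genes, beside 14.9% of all genes. In the direct comparison of DNFB with BAC, 7 genes were higher after DNFB and none lower, beside 3.14% of all genes higher and 3.66% lower. These 7 genes also had no overlap between the DNFB and BAC arrays, beside 13.7% of all genes. The vehicle arrays are shared by the first 2 comparisons. The 10 members were chosen with earlier results of these data known, so their counts beside these shares are a description and not a test.

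**Figure D1:**
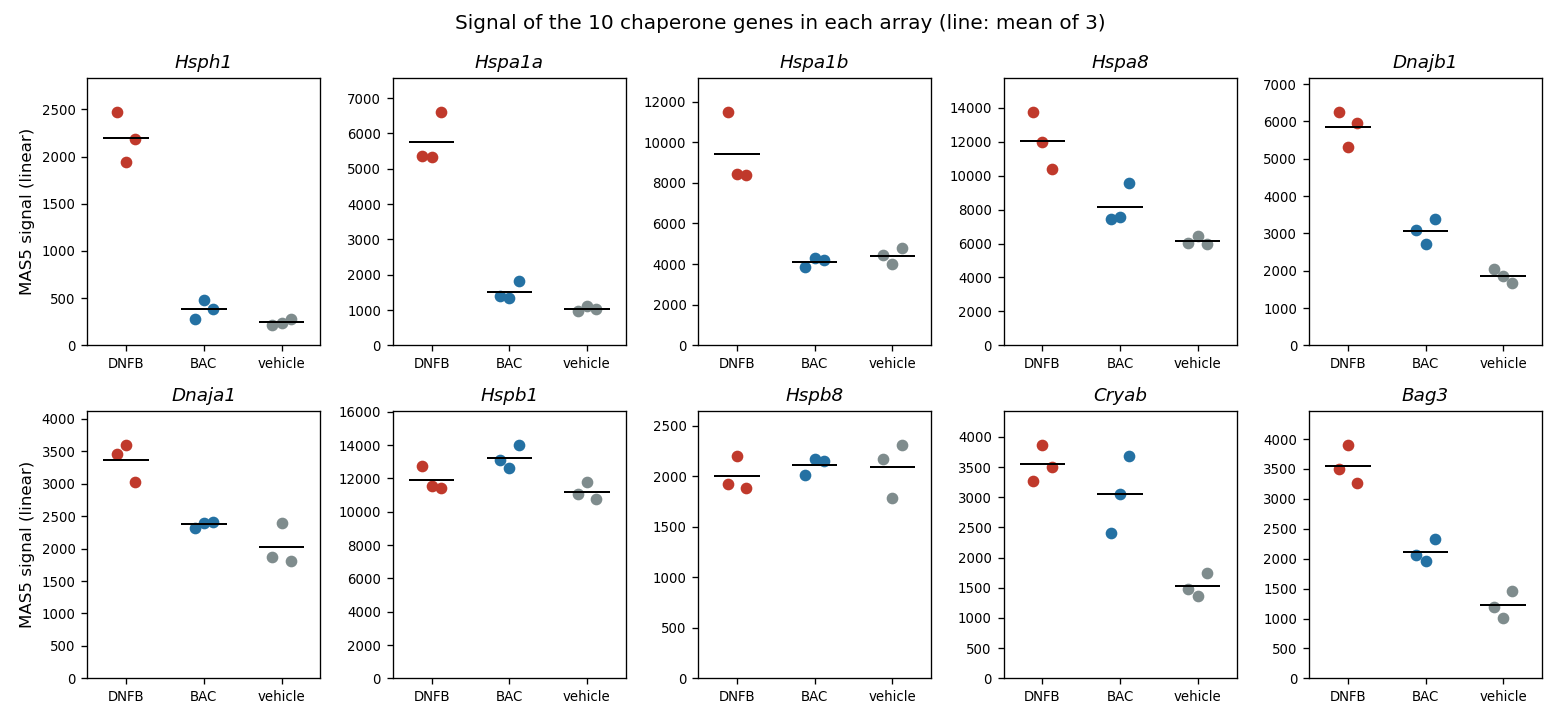
MAS5 signal (linear axis from 0) of the probe set that stands for each of the 10 genes, in 3 DNFB, 3 BAC and 3 vehicle arrays; points are arrays and lines are means. Hsph1 and Hspa1a sit far above the other groups after DNFB, Cryab is raised by both compounds, and Hspb1 and Hspb8 overlap between DNFB and the vehicle.

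Among the Hsp110 and Hsp70 genes, Hsph1 (Entrez gene 15505), which encodes an Hsp110 protein that recharges Hsp70, had the largest change. Its probe set 1425993_a_at gave 2476, 1945 and 2184 in the DNFB arrays, 281, 478 and 382 in the BAC arrays, and 219, 238 and 274 in the vehicle arrays. The 3 groups did not overlap, and the DNFB arrays stood far from both others. DNFB averaged 2202 ± 266 and the vehicle 244 ± 27.9 (SD, n = 3 each), which is 8.53-fold. On the log2 scale the rise was 3.09 ± 0.17 (SE; limma adjusted p = 2.1e-08). Hsph1 ranked 4th among 14122 genes by the size of its rise after DNFB, and 1319th after BAC. BAC averaged 380 ± 98.7, a log2 change against the vehicle of 0.58 ± 0.17 (limma adjusted p = 0.0311). DNFB exceeded BAC by 2.51 ± 0.17 (limma adjusted p = 4.24e-07). The second Hsph1 probe set, 1423566_a_at, gave log2 changes of 2.81, 0.75 and 2.07 in the 3 comparisons.

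Hspa1a (Entrez gene 193740) is the classic inducible Hsp70, and its probe set 1452388_at gave 5352, 5339 and 6615 in the DNFB arrays, 1401, 1350 and 1810.0 in the BAC arrays, and 973, 1126 and 1029 in the vehicle arrays. The groups again did not overlap, with DNFB highest and the vehicle lowest. The log2 change was 2.45 ± 0.13 after DNFB (5.45-fold, limma adjusted p = 1.38e-08) and 0.53 ± 0.13 after BAC (1.44-fold, limma adjusted p = 0.0117), and DNFB exceeded BAC by 1.92 ± 0.13. Hspa1b, its neighbour with a nearly identical coding sequence, did not pass the test after BAC. Its probe set 1427127_x_at gave 11500, 8456 and 8365 in the DNFB arrays, 3868, 4309 and 4187 in the BAC arrays, and 4449.7, 4002 and 4814 in the vehicle arrays. The BAC and vehicle arrays overlapped, while all DNFB arrays lay above both. On the log2 scale the change was 1.08 ± 0.12 after DNFB (limma adjusted p = 2.76e-05) and -0.10 ± 0.12 after BAC (95% interval -0.36 to 0.16, limma adjusted p = 0.654).

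The 3 Hspa1b probe sets moved alike, with log2 changes of 0.88 to 1.08 after DNFB and -0.13 to -0.10 after BAC. The probe set 1427127_x_at carries the suffix that the maker gives to sets whose probes also match other sequences, so signal from the near-identical copy cannot be separated there. Probe sequences were not compared, so signal from the other copy was not tested in the Hspa1a set or the other Hspa1b sets. The log2 signal of Hspa1a minus that of the Hspa1b probe set 1427126_at, taken within each array, was -0.92 to -0.05 after DNFB, -1.34 to -1.10 after BAC and -1.97 to -1.72 in the vehicle. The groups did not overlap, and this difference was 1.42 larger after DNFB than in the vehicle and 0.66 larger after BAC than in the vehicle. Each gave an exact two-sided permutation p of 0.1, the smallest that 3 arrays against 3 allow; the other 2 Hspa1b probe sets gave the same p and differences of 1.37 and 1.57 after DNFB and 0.63 and 0.64 after BAC.

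Hspa8, the constitutive Hsp70 of the cytosol, rose in both treatments. Its probe set 1420623_x_at gave 13771, 11978 and 10369 in the DNFB arrays, 7454, 7551 and 9545 in the BAC arrays, and 6043, 6422 and 5965 in the vehicle arrays. No groups overlapped, although DNFB replicate 3 lay close to BAC replicate 3. The log2 change was 0.96 ± 0.12 after DNFB (limma adjusted p = 6.8e-05) and 0.40 ± 0.12 after BAC (limma adjusted p = 0.0357), and DNFB exceeded BAC by 0.56 ± 0.12 (limma adjusted p = 0.0117). The sets 1420623_x_at and 1455789_x_at carry the same suffix as the Hspa1b set 1427127_x_at, so signal from other matching sequences cannot be separated there. The 4 Hspa8 probe sets differed in size of response: 1431182_at changed by 2.11 after DNFB and 1.24 after BAC, where 1420622_a_at changed by 0.56 and 0.33. All 4 passed the test for DNFB in the fit of probe sets and 3 passed for BAC, with 1420622_a_at at an adjusted p of 0.209 for BAC. For 1420622_a_at the DNFB and vehicle arrays overlapped (adjusted p = 0.0314 in the fit of probe sets). Its difference between DNFB and BAC was 0.23, with overlap, and did not pass (adjusted p = 0.453), while the other 3 sets passed there.

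The J-domain proteins start the Hsp70 cycle. Dnajb1, the stress-induced Hsp40, gave 6257, 5326 and 5959 in the DNFB arrays with its probe set 1416756_at, 3100.2, 2713 and 3374 in the BAC arrays, and 2035, 1849.6 and 1663 in the vehicle arrays. The 3 groups were separate and equally ordered as for Hsph1. Its log2 change was 1.65 ± 0.11 after DNFB (limma adjusted p = 2e-07) and 0.72 ± 0.11 after BAC (limma adjusted p = 0.000475), and DNFB exceeded BAC by 0.93 ± 0.11 (limma adjusted p = 1e-04). The second probe set, 1416755_at, was 2.30-fold higher after DNFB and changed by 0.19 (log2) after BAC, where it did not pass (adjusted p = 0.426 in the fit of probe sets).

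Dnaja1, a J-domain protein with a farnesyl anchor, had the smallest of the 8 rises after DNFB. Its probe set 1416288_at gave 3459.5, 3602 and 3021 in the DNFB arrays, 2322, 2399 and 2406.5 in the BAC arrays, and 1872, 2402 and 1804 in the vehicle arrays. DNFB lay above both other groups, while BAC overlapped the vehicle through vehicle replicate 2. On the log2 scale it changed by 0.73 ± 0.12 after DNFB (limma adjusted p = 0.000543). It was 0.24 ± 0.12 after BAC (95% interval -0.01 to 0.49, limma adjusted p = 0.2), a change that passed without vehicle replicate 2 (0.37, adjusted p = 0.0422). DNFB exceeded BAC by 0.49 ± 0.12 (limma adjusted p = 0.0196). Of its other probe sets, 1460179_at rose after DNFB (0.45) and 1459835_s_at did not pass (0.41, adjusted p = 0.129 in the fit of probe sets). Neither passed between DNFB and BAC (adjusted p = 0.0542 and 0.663), and with the mean of the Dnaja1 probe sets that difference was 0.34 (limma adjusted p = 0.0676).

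Bag3, an exchange factor that links Hsp70 to small heat shock proteins and to selective autophagy, has 1 probe set, 1422452_at. It gave 3503, 3905 and 3266 in the DNFB arrays, 2060.2, 1959 and 2335 in the BAC arrays, and 1198, 1016 and 1454 in the vehicle arrays. The groups did not overlap. The log2 change was 1.54 ± 0.13 after DNFB (2.91-fold, limma adjusted p = 1.22e-06) and 0.80 ± 0.13 after BAC (1.74-fold, limma adjusted p = 0.000653), and DNFB exceeded BAC by 0.74 ± 0.13 (limma adjusted p = 0.00248).

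The 3 small heat shock proteins differed from one another. Cryab, alpha-B-crystallin, gave 3276, 3869 and 3496 in the DNFB arrays with its probe set 1416455_a_at, 2409.6, 3046 and 3688 in the BAC arrays, and 1478, 1365 and 1749 in the vehicle arrays. DNFB and BAC overlapped, and both lay above the vehicle. Its log2 change was 1.21 ± 0.14 after DNFB (limma adjusted p = 3.68e-05) and 0.97 ± 0.14 after BAC (limma adjusted p = 0.000248). The difference between DNFB and BAC was 0.24 ± 0.14 (95% interval -0.07 to 0.54, limma adjusted p = 0.364), so Cryab was the 1 member that passed against the vehicle in both treatments and did not pass between them. The probe set 1434369_a_at changed by 1.30 and 0.87, and 1435837_at by 0.59 and 0.51, the last not past the test in either (adjusted p = 0.431 and 0.493 in the fit of probe sets).

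Hspb1, the mouse Hsp25, and Hspb8, the partner of Bag3, did not pass the test in any comparison. Hspb1 gave 12753, 11521 and 11416 in the DNFB arrays with 1422943_a_at, 13089.6, 12624 and 14022 in the BAC arrays, and 11057, 11762 and 10784 in the vehicle arrays. DNFB overlapped the vehicle, whereas the BAC arrays lay above it by a small margin. The log2 change was 0.09 ± 0.09 after DNFB (95% interval -0.11 to 0.28) and 0.24 ± 0.09 after BAC (95% interval 0.04 to 0.44, limma adjusted p = 0.101). Hspb8 gave 1925, 2197 and 1879 in the DNFB arrays with 1417013_at, 2009, 2172 and 2152 in the BAC arrays, and 2169.6, 1781 and 2309.6 in the vehicle arrays. All 3 groups overlapped. Its log2 change was -0.06 ± 0.11 after DNFB (95% interval -0.30 to 0.19) and 0.02 ± 0.11 after BAC (95% interval -0.22 to 0.27). The 3 Hspb8 probe sets disagreed in direction after DNFB: 1417014_at changed by -0.42 and 1456434_x_at by 0.48 (adjusted p = 0.103 and 0.209 in the fit of probe sets). After BAC 1456434_x_at changed by 0.72, with all BAC arrays above all vehicle arrays (adjusted p = 0.0521 in the fit of probe sets), and 1417014_at by -0.17. The suffix of 1456434_x_at is the one described for Hspa1b, so signal from other matching sequences cannot be separated there.

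**Figure D2:**
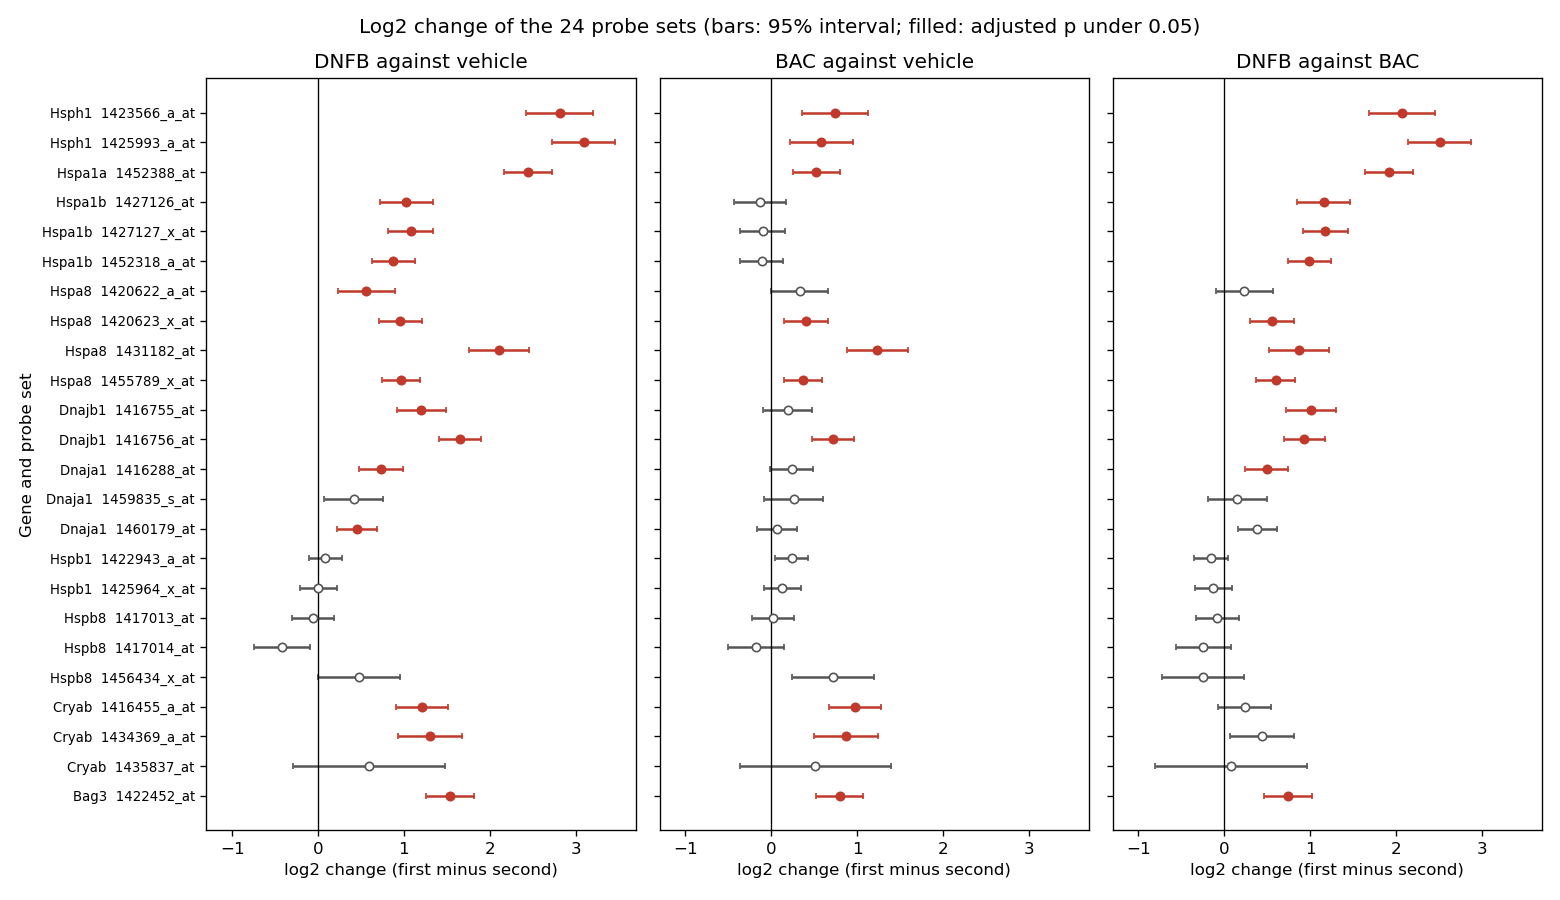
Log2 change (first group minus second) of all 24 probe sets in the 3 comparisons, from limma on every probe set; bars are 95% intervals and filled points have an adjusted p under 0.05. For DNFB against the vehicle 17 sets are filled, for BAC against the vehicle 10, and for DNFB against BAC 13, and no filled point lies below 0.

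Across the probe sets, 17 of 24 rose after DNFB and none fell, beside 4.63% of all 29987 tested probe sets that rose and 5.81% that fell. After BAC 10 of 24 rose and none fell, beside 4.91% and 5.25%. The Hspb8 probe set 1417014_at was called lower after DNFB without DNFB replicate 1 (-0.58, adjusted p = 0.0226) or vehicle replicate 2 (-0.54, adjusted p = 0.0492), which gave 16 probe sets higher and 1 lower. DNFB exceeded BAC in 13 and was below it in none, beside 1.95% of all probe sets higher and 3% lower. The calls for Hsph1, Hspa1a and Hspa8 after BAC depended on single arrays and on scaling: with arrays centred on their median the adjusted p were 0.0655, 0.0828 and 0.159. Without BAC replicate 3 their adjusted p were 0.0873, 0.0637 and 0.152, and without vehicle replicate 1 they were 0.118, 0.0582 and 0.113, which left 3 of 10 genes called in either case, namely Dnajb1, Cryab and Bag3. The Hsph1 call also ended without BAC replicate 2 (0.15) or vehicle replicate 2 (0.0696), and that of Hspa8 without BAC replicate 2 (0.0505) or vehicle replicate 3 (0.0956). Between DNFB and BAC, the Dnaja1 call ended without BAC replicate 1 (0.061) or 2 (0.0622) and without DNFB replicate 1 (0.0537) or 2 (0.0789), and that of Hspa8 without BAC replicate 1 (0.0535) or 2 (0.0614).

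Cryab was set beside skeletal muscle markers, since it is abundant in muscle. Of 20 markers, 9 rose after DNFB and none fell, beside 6.76% of all tested genes that rose, with a median log2 change of 0.47 and a range of -0.10 to 0.79, and after BAC none passed, beside 6.59% of all genes that rose, with a median of 0.30 and a range of 0.02 to 0.49. The summed marker signal was 79901, 99539 and 92299.6 in the DNFB arrays, 64332, 78313 and 96269.9 in the BAC arrays, and 56275, 62986 and 73485 in the vehicle arrays. BAC replicate 3 had the highest marker sum and the highest Cryab signal of its group, and BAC replicate 1 the lowest of both. Likewise, DNFB replicate 2 was highest and DNFB replicate 1 lowest in both. Vehicle replicate 3 was highest in both, while vehicle replicate 1 had the lowest sum and vehicle replicate 2 the lowest Cryab signal. The Cryab probe set 1434369_a_at followed the order of the marker sum within all 3 groups. The Cryab change was larger than that of any of the 20 markers in both comparisons, as was that of Hspb3. Of 6 tested smooth muscle markers, 3 rose after DNFB (median log2 change 0.41) and 3 after BAC (median 0.59), beside 6.76% and 6.59% of all tested genes. The summed signal of all 7 smooth muscle markers, with the untested Cnn1, came mostly from Acta2 and Tagln. It was 2777 to 3179 in the DNFB arrays, 3351 to 3583 in the BAC arrays and 2067 to 2386 in the vehicle arrays, with no overlap. Of 8 fibroblast markers, 2 rose after DNFB and 1 after BAC, beside the same shares, and a count of 1 gene is near such a share. The fibroblast sums were 72924 to 83645 in the DNFB arrays, 66455 to 77025 in the BAC arrays and 57420.1 to 66459 in the vehicle arrays. Among the other small heat shock proteins, Hspb3 and Hspb7, which are muscle proteins, rose by 0.97 ± 0.18 and 0.62 ± 0.12 after DNFB and by 0.63 ± 0.18 and 0.44 ± 0.12 after BAC. Hspb6 and Hspb2 had changes of 0.54 and 0.45 after DNFB (limma adjusted p = 0.0579 and 0.0778), within the range of the skeletal muscle markers. The calls of Hspb3 and Hspb7 after BAC ended when BAC replicate 2 (limma adjusted p = 0.0833 and 0.0886), BAC replicate 3 (0.107 and 0.0928), vehicle replicate 1 (0.0747 and 0.153) or vehicle replicate 2 (0.0712 and 0.0539) was left out, and that of Hspb3 also without vehicle replicate 3 (0.0636). The part of muscle and fibroblasts in these changes was not tested.

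**Figure D3:**
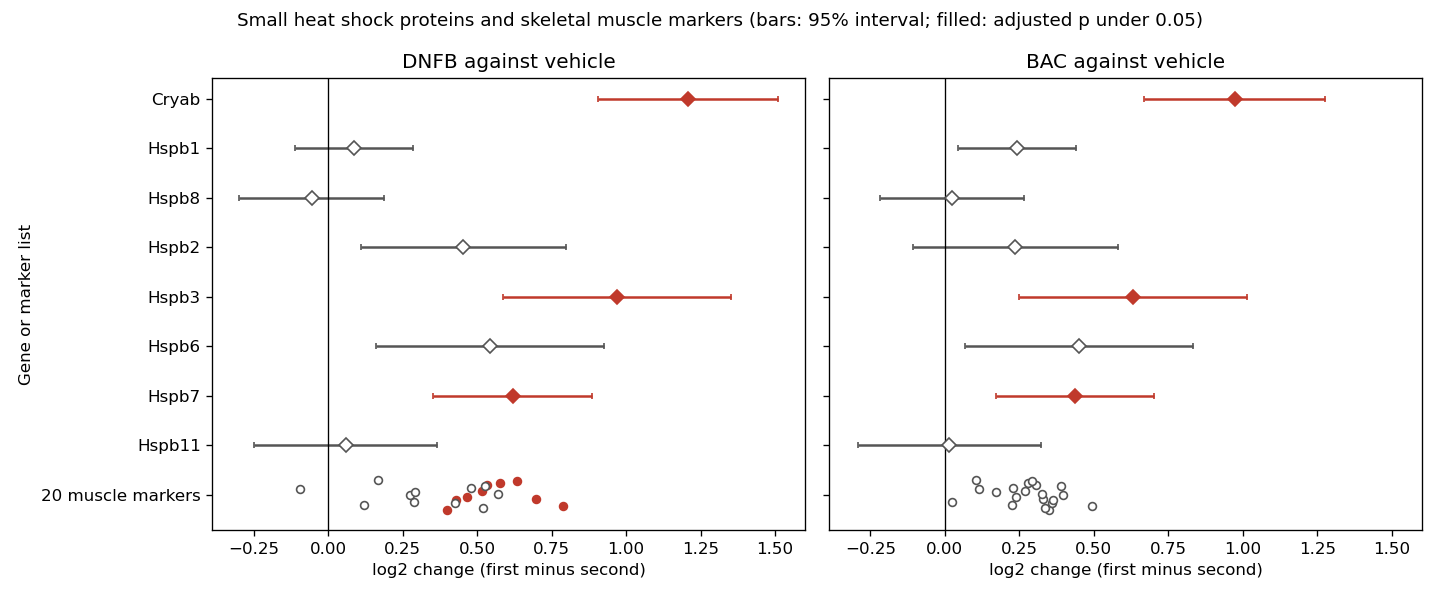
Log2 change of 8 small heat shock protein genes, with 95% intervals, and of 20 skeletal muscle markers (points in the bottom row), for DNFB and BAC against the vehicle; filled symbols have a limma adjusted p under 0.05. Cryab and Hspb3 lie to the right of every skeletal muscle marker in both panels. After DNFB, Hspb2, Hspb6 and Hspb7 lie among these markers, and Hspb1 and Hspb8 lie near 0. In the BAC panel Hspb8 lies near 0, and Hspb1 lies at 0.24 with an interval of 0.04 to 0.44.

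The wider chaperone network was read from 8 companion lists of 74 genes, of which 66 were tested; these were lists of textbook chaperone genes drawn up with earlier results of these data known. After DNFB 14 rose and 2 fell, after BAC 7 rose and 4 fell, and between DNFB and BAC 6 were higher and 2 lower after DNFB. Over all tested genes 6.76% rose and 7.08% fell after DNFB, and 6.59% rose and 7.64% fell after BAC. Between DNFB and BAC 3.14% were higher and 3.66% lower. The count of companion genes that fell after DNFB is under its share, and the counts of lower genes in the other comparisons are near theirs. A count of 1 gene in a list is near such a share, as for the TRiC and prefoldin genes (1 of 15) and the Hsp90 genes (1 of 10) that rose after BAC. Hsp90aa1, the inducible cytosolic Hsp90, gave 6740.4, 5528 and 5683 in the DNFB arrays, 3187, 3392 and 3459.7 in the BAC arrays, and 2144, 1956 and 2064 in the vehicle arrays. The groups did not overlap, and the order was that of Hsph1. The log2 change was 1.53 ± 0.10 after DNFB and 0.70 ± 0.10 after BAC, and DNFB exceeded BAC by 0.83 ± 0.10. Of 10 tested Hsp90 and cochaperone genes, 3 rose and 1 fell after DNFB, 1 rose and 1 fell after BAC. Stip1, which links Hsp70 to Hsp90, and Chordc1, an Hsp90 cochaperone, changed by 0.66 ± 0.17 and 0.62 ± 0.17 after DNFB, while Fkbp5, an immunophilin of steroid receptor complexes, changed by -0.63 ± 0.15. Fkbp4, its relative, changed by -0.54 ± 0.15 after BAC. Between DNFB and BAC 4 were higher, led by Hsp90aa1, Unc45a and Fkbp4, and Fkbp5 was lower (-0.68 ± 0.15). With the mean of all probe sets of a gene the Hsp90aa1 difference between DNFB and BAC was 0.48 (limma adjusted p = 0.0589).

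Of 5 other cytosolic Hsp70 and Hsp110 genes tested, Hspa4, a constitutive relative of Hsph1, rose after DNFB by 0.83 ± 0.12 and not after BAC (0.10 ± 0.12, limma adjusted p = 0.62). The difference between the treatments passed (0.73 ± 0.12, limma adjusted p = 0.00152), though not with the mean of all Hspa4 probe sets (0.36, adjusted p = 0.181). Hspa2, an Hsp70 best known from the testis, fell after BAC (-0.74 ± 0.13) and did not pass after DNFB (-0.41 ± 0.13, limma adjusted p = 0.0549). Among 10 other J-domain genes, Dnajb4, close in sequence to Dnajb1, rose 2.17-fold after DNFB and 1.76-fold after BAC. Dnaja2 (0.38) and Dnajb2 (0.47) rose after DNFB, and Dnajc7 changed by -0.37 after BAC. Among 8 exchange factors and Hsp70 regulators, Bag4 fell in both treatments, with 232.5, 286 and 275 in the DNFB arrays, 329, 304 and 258 in the BAC arrays, and 514, 509.7 and 547 in the vehicle arrays. Both compounds lay below the vehicle without overlap. Bag4, the silencer of death domains, changed by -0.95 ± 0.14 and -0.79 ± 0.14, opposite to Bag3, and Bag5 rose after BAC by 0.47 ± 0.13.

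Of 8 mitochondrial chaperone genes, the Hsp10 gene Hspe1 (0.79 ± 0.13), the mitochondrial Hsp70 gene Hspa9 (0.64 ± 0.12) and the Hsp60 gene Hspd1 (0.63 ± 0.13) rose after DNFB, and only Hspa9 passed after BAC (0.39 ± 0.12). Hspe1 was higher after DNFB than after BAC (0.55 ± 0.13), and Grpel2, an exchange factor of the mitochondrial Hsp70, was lower (-0.73 ± 0.15). Of 15 genes of TRiC, the ring chaperonin of actin and tubulin, and prefoldin, Cct6a (0.37 ± 0.11) and Cct3 (0.38 ± 0.12) rose after DNFB, and Cct6a (0.37 ± 0.11) after BAC. Of 5 tested heat shock factors and regulators none passed in any comparison, and the smallest unadjusted p, 0.0515, was that of Hsf4 between DNFB and BAC (0.96 ± 0.46, limma adjusted p = 0.236). Hsf2 changed by -0.07 ± 0.33 after DNFB and 0.04 ± 0.33 after BAC. Its signals were 48.9 to 103.7, near the 40th percentiles of the arrays (46.2 to 60.7), and Hsf4, Hsf5 and Hsf2bp were dim as well. With SE of 0.32 to 0.46 for these dim genes, only large changes could have passed. In the 4 other lists with no call between DNFB and BAC, the genes with the smallest p were Dnaja2 (0.30), Bag1 (0.32), Pfdn5 (0.41) and Hspb3 (0.34), with limma adjusted p of 0.121 to 0.299. Hsf1, Hsp90ab1, Ptges3 and Ppid were not analysed here. In all 19 alternatives Hsp90aa1, Dnajb4 and Bag4 passed in both treatments against the vehicle. So did Hspa4, Hspb3 and Hspe1 after DNFB and Hspa2 after BAC. Every other call against the vehicle ended in at least 1. Most often lost were Cct3 (13 alternatives) and Dnajb2 (12) after DNFB, and Hspa9 (11) and Dnajc7 (10) after BAC. With the mean of all probe sets, calls lost after DNFB included Cct3 (0.034, limma adjusted p = 0.898), Hspb7 (0.14, 0.665) and Hspa9 (0.29, 0.468). That of Fkbp4 after BAC was lost as well (-0.083, limma adjusted p = 0.845). Between DNFB and BAC every companion call ended in at least 1 alternative. Left-out arrays ended the call of Hspe1 (BAC replicate 1 or 2, DNFB replicate 2 or 3; adjusted p 0.0601 to 0.0844), of Grpel2 (BAC replicate 2; 0.0531) and of Fkbp5 (BAC replicate 2; 0.0627). They also ended that of Fkbp4 (BAC replicate 2 or 3, or any DNFB array; 0.0527 to 0.144), of Unc45a (BAC replicate 1 or 3, or any DNFB array; 0.0511 to 0.125) and of Cacybp (BAC replicate 1 or 3, any DNFB array, or vehicle replicate 1; 0.0588 to 0.123). The count of companion genes called after DNFB was 10 without vehicle replicate 1, against 16 with all arrays. After BAC it was 11 with all arrays, and 4, 5, 5 and 6 without BAC replicate 2, BAC replicate 3, vehicle replicate 1 and vehicle replicate 3. Between DNFB and BAC it was 8 with all arrays, 5 without any 1 of the BAC arrays or without DNFB replicate 1 or 2, and 4 without DNFB replicate 3.

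**Figure D4:**
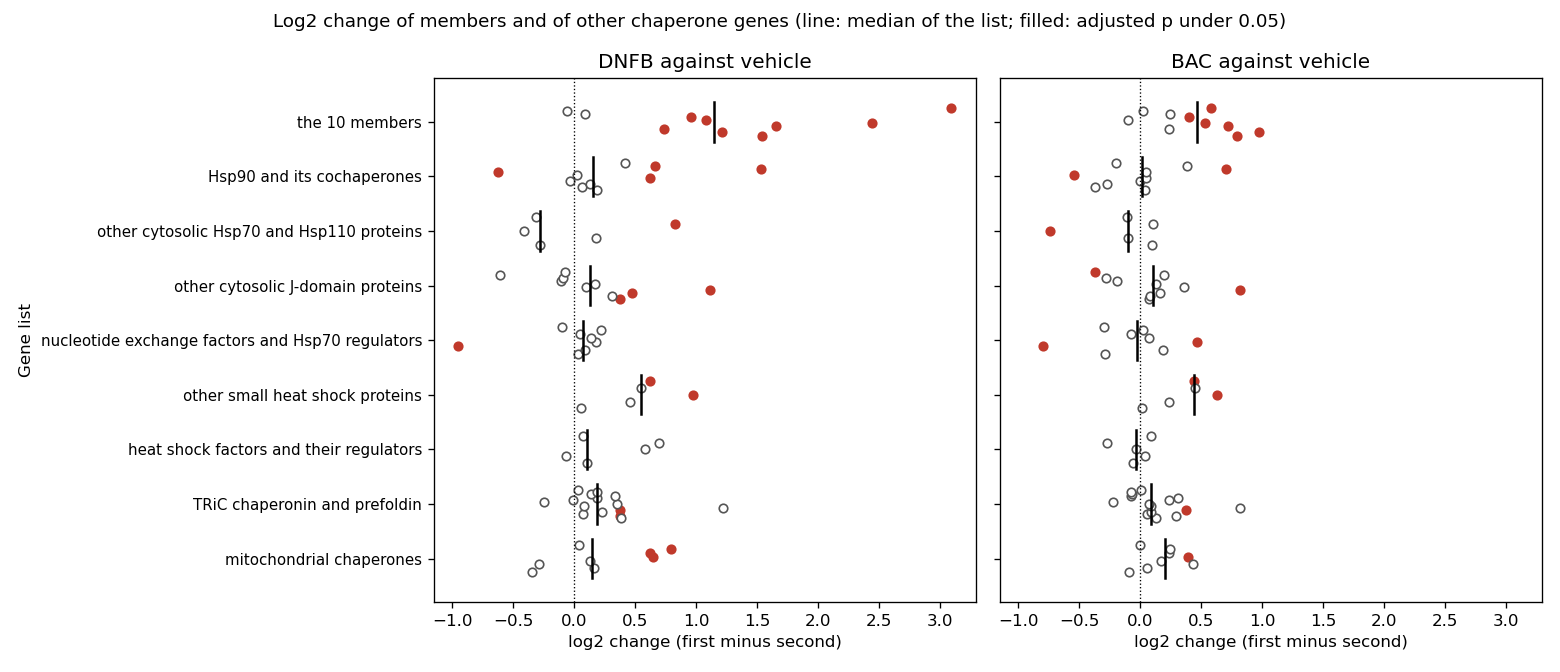
Log2 change of the 10 members and of the 66 tested genes of 8 companion lists, for DNFB and BAC against the vehicle; each point is a gene, the line is the median of a list and filled points have a limma adjusted p under 0.05. The medians of the members, 1.14 and 0.47, lie to the right of those of the companion lists. Those run from -0.28 to 0.54 after DNFB and from -0.10 to 0.44 after BAC. Members and lists were drawn up with earlier results of these data known, so this order depends on that choice.

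Genes with a pattern like that of Hsph1 were ranked by Pearson r of log2 signals over the 9 arrays, as a description; the arrays share their groups, so r mostly follows the group means. The 8 genes outside the members with the highest r, from 0.968 to 0.986, were Ints12, Txnrd1, Yy1, Kitl, Srxn1, Zbtb11, Oser1 and Myl4. Txnrd1, the cytosolic thioredoxin reductase, was higher after DNFB than after BAC by 1.44 ± 0.13, and Srxn1, sulfiredoxin, changed by 3.44 ± 0.21 after DNFB and 0.81 ± 0.21 after BAC. Ints12, with the highest r, changed by 0.58 ± 0.13 after DNFB and did not pass between DNFB and BAC (limma adjusted p = 0.0654). Myl4 passed in no comparison (limma adjusted p = 0.0529 after DNFB, 0.737 after BAC and 0.164 between them). Among the members, Hspa1a ranked 3rd of 14121 genes (r = 0.979) and Hspa1b 29th (0.948). Dnajb1 (0.931), Hspa8 (0.913), Dnaja1 (0.905) and Bag3 (0.900) followed, then Cryab (0.747), while Hspb1 (0.014) and Hspb8 (-0.23) did not share the pattern.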

How the data were processed

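Ear skin RNA was measured on Affymetrix arrays. The authors deposited 1 linear intensity (signal) per probe set and array, computed by MAS5 in Affymetrix Expression Console, per the submitters' processing notes, which as used here give no settings. The 64 control probe sets were left out. Sample titles gave each array's group and number. Probe sets were named through the platform annotation; 34945 had 1 symbol, 932 several and 9160 none, and no set with several symbols named a member.

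Signals were taken as log2(signal + 16), which understates changes of dim genes. A gene was tested when above the 40th percentile in at least 3 of 9 arrays. All 9 arrays entered 1 model with a mean per treatment, in limma 3.58.1 (R 4.3.3; lmFit and eBayes with an intensity trend), two-sided, with Benjamini-Hochberg adjustment over 14122 genes or, in the fit of probe sets, 29987 probe sets, and a threshold of 0.05. The procedure was tested on simulated data. Named genes were all 10 members; per companion list and comparison up to 4 genes past the threshold by size, or the 1 with the smallest p; Hsf1 and Hsf2; and the 8 genes most like Hsph1. A few others were named after their values were seen. Members and lists were chosen with earlier results of these data known. Alternatives covered pseudocount, filter, probe set choice, normalization, variance model, replicate block and left-out arrays.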

Additional observations from a re-analysis of the deposited data

How the results depend on the processing

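The counts of member genes called in DNFB against the vehicle (8, with every array left out in turn 8 to 8) and in DNFB against BAC (7, with 1 array left out 5 to 7) stayed within 1.5 times under all 19 alternatives. Those of probe sets did so under the 18 that apply to them: 17 became 15 to 17, and 13 became 11 to 13 with 1 array left out, 9 without the intensity trend and 14 with quantile normalization, 1 of these 14 lower (Hspb1). For BAC against the vehicle the 6 genes became 3 with arrays centred on their median and 3 without the intensity trend, and 3 to 6 with 1 array left out; the 10 probe sets became 6 and 4 under the same choices and 5 to 11 with 1 array left out. Centring moved the split of all calls for BAC from 930 higher and 1079 lower (46.3% higher) to 606 and 1178 (34% higher). Companion genes called after BAC (11) became 5 with centring, 6 with averaged probe sets and 6 without the trend (4 to 11 with 1 array left out), after DNFB (16) 8 without the trend (10 to 16), and between DNFB and BAC (8) 4 with the mean of probe sets and 2 without the trend (4 to 8). The cause of these shifts was not tested. Values near 0 changed sign in Hspb1 after DNFB (-0.10 with quantile normalization), in Hspb8 after BAC (-0.062 with centring, -0.025 with quantile normalization, -0.085 to 0.10 with 1 array left out, the lowest without vehicle replicate 2) and in Hspb8 after DNFB (0.0025 with the mean of probe sets, -0.16 to 0.022 with 1 array left out, the highest without vehicle replicate 3). With the mean of probe sets Hspb7 after BAC was -0.030 and Fkbp4 between DNFB and BAC -0.048; the checks of single companion genes were added after seeing the data. For Hspb1 the difference between DNFB and BAC passed with quantile normalization (-0.28, adjusted p = 0.0216). Of 190 member values per comparison, 187, 167 and 180 kept their direction and side of the threshold in DNFB against the vehicle, BAC against the vehicle and DNFB against BAC.

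The shared replicate numbers are not stated to pair the arrays. Deviations of same-numbered arrays from their group means correlated with r from -0.122 to 0.153, so the numbers were not taken as pairs. With the replicate number as a block, the member genes called were 8, 5 and 7, the probe sets 17, 7 and 13, and the companion genes 15, 11 and 8, in the order DNFB against the vehicle, BAC against the vehicle and DNFB against BAC; Hspa8 after BAC was the member gene lost (adjusted p = 0.0609).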
